A study of Mus musculus with 6 samples.

Results

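The SLC25 genes encode the mitochondrial carrier family, the largest family of solute carriers, and were followed here in B16F10 cells, an established pigmented mouse melanoma line. The members were the genes whose symbol is Slc25a followed by a number, without Slc25a20. The platform annotation named 46 such symbols on the array, which left 45 members of 19505 named genes, each measured by 1 feature. The cells were kept for 48 h in medium alone (control), in medium with 2.5 µM of a compound named SQ-diEG or di-sq by the submitters, or in medium with 40 µM of it. All 3 groups share the line, the plating a day earlier and the medium change, and each holds 2 arrays. No genotype differs between the groups, and the labels name no vehicle. Groups follow the titles, source names and treatment fields, with which the description fields of the dosed samples disagree. Whether replicates are separate cultures is not stated, so the p-values reflect only how much these samples vary, a variation that may be technical. The values are log2 signals that the authors made by RMA (robust multi-array averaging). Every change is a difference of group means on that deposited log2 scale, 2 arrays against 2. The ± values are moderated standard errors from 1 limma fit of all genes over all 6 arrays. A gene's error therefore pools the scatter of all 3 groups and is the same in each comparison.

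Mitochondrial carriers are small proteins that sit mostly in the inner mitochondrial membrane and exchange metabolites between the cytosol and the matrix. Oxidative phosphorylation depends on them, since ADP and phosphate must enter the matrix and ATP must leave it. Other members carry the citrate, malate, aspartate and glutamate that link the matrix to cytosolic synthesis, and others carry nucleotides, coenzymes, glutathione and iron. They are made in the cytosol without a cleaved targeting sequence in most cases and are inserted by the TIM22 complex of the inner membrane.

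The background mark used throughout is, on each array, the 95th percentile of its 5222 negative controls, which lay between 9.80 and 10.06. Between 3939 and 4566 genes reached it on an array. All 7 melanoma markers measured, among them Mitf, Sox10, Tyr and Pmel, lay above it on all 6 arrays, while none of 16 markers of fibroblasts, leukocytes, endothelium, keratinocytes and adipocytes reached it on any array. Both replicate 1 arrays of the dosed groups stood apart. Their hybridisation controls averaged 10.43 (2.5 µM) and 10.30 (40 µM), against 10.82 to 11.15 on the other 4 arrays, and their poly-A spike controls averaged 5.65 and 5.63, against 6.35 to 7.42. Their genes were spread more widely, with an interquartile range of 5.20 and 5.43 against 4.90 to 4.94. The main results below that rest on these arrays are given with and without them, and the part of the spike and spread differences in them was not tested.

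Regulatory sequence was examined for the members because several carriers stood high on the same arrays. RefSeq promoter windows (build GRCm38.p6), limited here to the 250 bases before the annotated start, matched 35 of the 45 members by symbol. The windows of Slc25a5, Slc25a4, Slc25a3 and Slc25a17 are shown, since these 4 members had the largest mean difference from control on the replicate 1 dosed arrays. They were chosen after their values were seen. The windows lie at chrX:36795347-36795596 on the plus strand for Slc25a5, chr8:46211063-46211312 on the minus strand for Slc25a4, chr10:91123968-91124217 on the minus strand for Slc25a3 and chr15:81360766-81361015 on the minus strand for Slc25a17, and each is written 5′ to 3′ along its gene. Capitals mark matches, on either strand, to 7 motifs: the NRF1 core GCGCNTGCG, the ETS core CCGGAAG, the E-box CACGTG, the antioxidant response element (ARE) core TGACNNNGC, the CCAAT box, the GC box GGGCGG and the TATA box TATAAA.
Slc25a5: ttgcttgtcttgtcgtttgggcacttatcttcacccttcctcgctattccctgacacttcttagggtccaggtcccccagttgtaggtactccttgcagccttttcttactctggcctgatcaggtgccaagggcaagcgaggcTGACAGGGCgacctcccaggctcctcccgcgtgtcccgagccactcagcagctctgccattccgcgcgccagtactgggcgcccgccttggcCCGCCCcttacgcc
Slc25a4: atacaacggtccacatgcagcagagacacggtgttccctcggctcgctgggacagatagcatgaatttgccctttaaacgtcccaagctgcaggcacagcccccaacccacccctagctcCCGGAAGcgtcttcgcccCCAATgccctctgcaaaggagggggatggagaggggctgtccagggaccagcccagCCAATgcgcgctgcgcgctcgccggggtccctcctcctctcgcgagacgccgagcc
Slc25a3: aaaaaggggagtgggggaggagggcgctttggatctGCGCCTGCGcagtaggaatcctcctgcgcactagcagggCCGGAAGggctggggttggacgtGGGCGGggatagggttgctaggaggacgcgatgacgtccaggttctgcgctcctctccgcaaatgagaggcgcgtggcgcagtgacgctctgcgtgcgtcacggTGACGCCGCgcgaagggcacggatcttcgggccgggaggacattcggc
Slc25a17: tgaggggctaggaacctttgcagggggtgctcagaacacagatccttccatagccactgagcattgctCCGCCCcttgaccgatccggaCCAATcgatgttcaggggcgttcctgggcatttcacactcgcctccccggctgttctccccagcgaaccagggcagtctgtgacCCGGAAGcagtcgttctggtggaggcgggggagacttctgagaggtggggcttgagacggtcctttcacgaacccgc
The Slc25a5 window held an ARE core 106 bases before the start and a GC box 14 bases before it. The Slc25a4 window held an ETS core at 130 bases and CCAAT boxes at 112 and 56 bases. The Slc25a3 window held an NRF1 core at 214 bases, an ETS core at 175, a GC box at 152 and an ARE core at 48. The Slc25a17 window held a GC box at 182 bases, a CCAAT box at 161 and an ETS core at 77. No motif stood in all 4 windows: the ETS core was in 3, the GC box in 3, the ARE core in 2, the CCAAT box in 2 and the NRF1 core in 1, while neither the E-box nor the TATA box was in any of them. No 2 motif matches overlapped in the 4 windows.

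Across the 35 matched members the GC box was the most frequent motif, in 24 (68.6%), against 35.4% of the 27025 genes with a window of this length. The CCAAT box was in 18 (51.4%, against 37.5% of all genes), the E-box in 7 (20%, against 6.86%), the ARE core in 7 (20%, against 11.5%) and the ETS core in 5 (14.3%, against 7.83%). The NRF1 core was in 2 (5.71%, against 5.88%) and the TATA box in 2 (5.71%, against 14.3%). The members' windows were richer in G and C than windows in general, with a median GC content of 58.8% against 52%, and held a median of 14 CpG dinucleotides against 6. Among the members whose mean signal reached the background mark the median GC content was 64.4%, and among the others it was 57%. Where a gene had several windows a motif was counted once. These are matches of letters, with no measurement of binding.

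Carriers of ADP and ATP, phosphate, glutathione, citrate and NAD+ were among those with a signal clear of the background in these cells. In all, 13 of 45 members (28.9%) reached the background mark on all 6 arrays, 4 reached it on some arrays and 28 (62.2%) on none, where 75.3% of all genes reached it on none. The 13 were Slc25a1, Slc25a3, Slc25a4, Slc25a5, Slc25a11, Slc25a13, Slc25a17, Slc25a24, Slc25a36, Slc25a39, Slc25a40, Slc25a46 and Slc25a51. Slc25a12 reached it on 5 arrays, Slc25a23 on 2, and Slc25a38 and Slc25a44 on 1 each. Of the 28, 11 lay below the median of the negative controls on every array, so that no level can be read for them. A reading below the mark does not show that a gene is silent, and signals of different genes are not compared here, since probes differ in response. In cultures measured in bulk, fewer cells and less RNA per cell cannot be told apart.

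**Figure D1:**
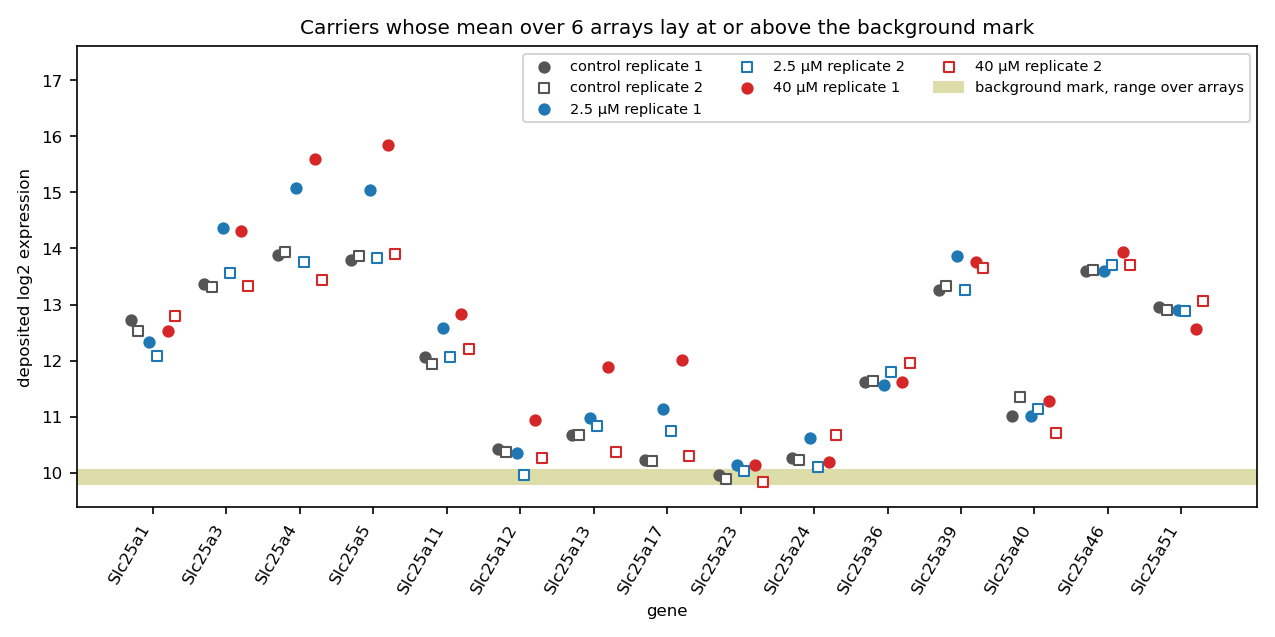
Deposited log2 expression of the 15 carriers whose mean over 6 arrays lay at or above the background mark, 1 point per array, coloured by dose, with filled circles for replicate 1 and open squares for replicate 2; the band is the range of the mark over arrays. The filled dosed points of Slc25a3, Slc25a4, Slc25a5 and Slc25a17 lie above their control points, and the open ones lie nearer to them. The open dosed points of these genes range from -0.48 (Slc25a4 at 40 µM) to 0.53 (Slc25a17 at 2.5 µM) relative to the control mean.

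Of the 4 energy carriers, 3 stood well above control on 1 array of each dose. Slc25a5, the ADP/ATP carrier of dividing cells, read 13.80 and 13.87 in the controls, 15.04 and 13.84 at 2.5 µM and 15.85 and 13.90 at 40 µM, replicates 1 and 2 in that order. Both 40 µM arrays lay above both controls, replicate 2 only just. The mean of the replicate 1 arrays of both doses was 1.61 above the control mean and that of the replicate 2 arrays 0.03 above it. The change was 1.04 ± 0.63 at 40 µM (95% interval -0.44 to 2.52, adjusted p = 0.515 in limma) and 0.60 ± 0.63 at 2.5 µM (adjusted p = 0.77). Without both replicate 1 dosed arrays, 13.90 at 40 µM and 13.84 at 2.5 µM remain.

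Slc25a4, the ADP/ATP carrier best known from heart and muscle, read 13.89 and 13.94 in the controls, 15.07 and 13.77 at 2.5 µM and 15.60 and 13.43 at 40 µM. At each dose replicate 1 lay above both controls and replicate 2 below both, so the groups overlapped. The change was 0.61 ± 0.69 at 40 µM (interval -1.02 to 2.23, adjusted p = 0.723) and 0.50 ± 0.69 at 2.5 µM (adjusted p = 0.83), and the replicate 2 arrays averaged -0.31 relative to control. Probe sequences were not used here, so how well each feature separates these similar carriers was not examined. Slc25a3, which brings phosphate into the matrix, read 13.36 and 13.31 in the controls, 14.37 and 13.57 at 2.5 µM and 14.31 and 13.33 at 40 µM. Both 2.5 µM arrays lay above both controls, while 1 of the 40 µM arrays lay between them. Its change was 0.63 ± 0.37 at 2.5 µM (adjusted p = 0.606) and 0.48 ± 0.37 at 40 µM (adjusted p = 0.594), with 1.01 on the replicate 1 arrays and 0.11 on the replicate 2 arrays. The fourth energy carrier, Slc25a31, an ADP/ATP carrier known from the germ line, was below the background mark on all arrays, between 3.73 and 4.62.

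The coenzyme and nucleotide carriers had 8 members, of which Slc25a17, Slc25a36 and Slc25a51 reached the mark on all arrays. Slc25a17, which carries coenzyme A, FAD and NAD+ across the peroxisomal and not the mitochondrial membrane, read 10.23 and 10.21 in the controls, 11.13 and 10.75 at 2.5 µM and 12.01 and 10.30 at 40 µM. It was the only member at the mark on all arrays whose 4 dosed arrays all lay above both controls, although 40 µM replicate 2 did so by less than 0.1. The change was 0.94 ± 0.50 at 40 µM (interval -0.23 to 2.10, adjusted p = 0.468) and 0.72 ± 0.50 at 2.5 µM (adjusted p = 0.658). On the replicate 1 dosed arrays it averaged 1.35 above control, and on the replicate 2 arrays 0.31 above it. Slc25a51, the carrier that brings NAD+ into the matrix, read 12.95 and 12.90 in the controls, 12.91 and 12.88 at 2.5 µM and 12.57 and 13.06 at 40 µM, and Slc25a36, a pyrimidine nucleotide carrier, read 11.62 and 11.64 in the controls, 11.56 and 11.80 at 2.5 µM and 11.62 and 11.96 at 40 µM. Both overlapped with control at each dose, with changes at 40 µM of -0.11 ± 0.21 and 0.16 ± 0.20 (adjusted p = 0.838 and 0.752).

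Slc25a26, which carries S-adenosylmethionine, the methyl donor for matrix methylation, lay low in the dosed cells. It read 9.49 and 9.54 in the controls, 9.19 and 9.44 at 2.5 µM and 9.06 and 8.95 at 40 µM, so all 4 dosed arrays were below both controls, and all 6 values were below the background mark. The change was -0.51 ± 0.20 at 40 µM (unadjusted p = 0.0377, adjusted p = 0.395 in limma) and -0.20 ± 0.20 at 2.5 µM (adjusted p = 0.763). The other pyrimidine nucleotide carrier, Slc25a33, went the other way and was above both controls on all 4 dosed arrays, with 6.02 and 6.04 in the controls, 6.45 and 6.14 at 2.5 µM and 7.20 and 6.25 at 40 µM. It too was below the mark, and its change at 40 µM was 0.69 ± 0.33 (adjusted p = 0.441). Slc25a42, a coenzyme A carrier, Slc25a32, a carrier of folate and FAD, and Slc25a16 were below the mark on all arrays, with changes at 40 µM of 0.56, 0.32 and -0.17. Slc25a42 averaged 0.80 above control on the replicate 1 dosed arrays and 0.30 on the replicate 2 arrays.

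Among the 6 carboxylate carriers, Slc25a1 was the member that differed most between the doses. It exports citrate, from which the cytosol makes acetyl-CoA for fatty acids and sterols. Slc25a1 read 12.72 and 12.52 in the controls, 12.33 and 12.08 at 2.5 µM and 12.54 and 12.80 at 40 µM. Both 2.5 µM arrays lay below both controls and below both 40 µM arrays, and of the 40 µM arrays, 1 lay between the controls and 1 above both. The change was -0.42 ± 0.20 at 2.5 µM (interval -0.88 to 0.05, adjusted p = 0.549), 0.05 ± 0.20 at 40 µM (adjusted p = 0.935), and 0.46 ± 0.20 for 40 µM against 2.5 µM (unadjusted p = 0.0513, adjusted p = 0.854 in limma). Unlike the energy carriers it was not high on the replicate 1 dosed arrays, where it averaged -0.19 relative to control, against -0.18 on the replicate 2 arrays.

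Slc25a11, the 2-oxoglutarate and malate carrier of the malate-aspartate shuttle, read 12.07 and 11.94 in the controls, 12.59 and 12.06 at 2.5 µM and 12.84 and 12.21 at 40 µM. Both 40 µM arrays were above both controls, with a change of 0.52 ± 0.28 (interval -0.13 to 1.17, adjusted p = 0.468). The replicate 1 dosed arrays averaged 0.71 above control and the replicate 2 arrays 0.13. Slc25a10, the dicarboxylate carrier, was below the mark at 9.29 and 9.55 in the controls, 9.56 and 9.30 at 2.5 µM and 9.58 and 9.38 at 40 µM, with no separation at either dose. Slc25a21, Slc25a34 and Slc25a35 were below the mark on all arrays, with changes at 40 µM between -0.09 and 0.31.

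The 12 amino acid carriers included both aspartate-glutamate carriers, which complete the malate-aspartate shuttle. Slc25a13, called citrin, read 10.67 and 10.68 in the controls, 10.97 and 10.83 at 2.5 µM and 11.88 and 10.36 at 40 µM. The 40 µM arrays fell on both sides of the controls, and the change was 0.45 ± 0.44 (adjusted p = 0.679). Without both replicate 1 dosed arrays its change at 40 µM was -0.31. Slc25a12, the other aspartate-glutamate carrier, read 10.42 and 10.38 in the controls, 10.35 and 9.96 at 2.5 µM and 10.95 and 10.26 at 40 µM, and its change at 40 µM was 0.21 ± 0.28 (adjusted p = 0.77).

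Slc25a22, a carrier that brings glutamate into the matrix, had the lowest change of all 45 members at 40 µM. It read 7.72 and 7.46 in the controls, 7.28 and 7.07 at 2.5 µM and 6.44 and 6.88 at 40 µM. All 4 dosed arrays were below both controls, the 40 µM arrays were below both 2.5 µM arrays, and replicate 1 and replicate 2 stood on the same side. The change was -0.93 ± 0.25 at 40 µM (interval -1.51 to -0.34, unadjusted p = 0.00698, adjusted p = 0.349 in limma) and -0.41 ± 0.25 at 2.5 µM (adjusted p = 0.609). At 40 µM replicate 1 differed from the control mean by -1.15 and replicate 2 by -0.71, and over both doses the replicate 1 arrays averaged -0.73 and the replicate 2 arrays -0.61. All 6 values were below the background mark.

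The second glutamate carrier, Slc25a18, and Slc25a2, an ornithine carrier, also lay lower on all 4 dosed arrays, at signals below the negative control median. Slc25a18 read 4.51 and 4.42 in the controls, 3.55 and 4.09 at 2.5 µM and 3.71 and 3.99 at 40 µM, with a change of -0.62 ± 0.25 at 40 µM (unadjusted p = 0.0432, adjusted p = 0.408 in limma) and -0.65 ± 0.25 at 2.5 µM (unadjusted p = 0.0369, adjusted p = 0.506). Slc25a2 read 4.380 and 4.435 in the controls, 4.202 and 4.002 at 2.5 µM and 4.030 and 3.774 at 40 µM, with a change of -0.51 ± 0.21 at 40 µM (unadjusted p = 0.0464, adjusted p = 0.409). Neither gene gave a signal that can be read as a level. The main ornithine carrier, Slc25a15, a part of the urea cycle in liver, read 7.21 and 7.15 in the controls, 6.78 and 7.01 at 2.5 µM and 7.35 and 7.10 at 40 µM, below the mark. Slc25a38, which supplies mitochondrial glycine for heme, read 9.88 and 10.01 in the controls, 9.71 and 9.96 at 2.5 µM and 9.25 and 9.74 at 40 µM, and Slc25a44, a carrier of branched-chain amino acids, read 9.81 and 9.88 in the controls, 10.04 and 9.44 at 2.5 µM and 9.20 and 9.56 at 40 µM. Both 40 µM arrays of these 2 genes lay below both controls, with changes of -0.45 ± 0.24 and -0.46 ± 0.26 (adjusted p = 0.467 and 0.494). Slc25a29, Slc25a45, Slc25a47 and Slc25a48 were below the mark on all arrays, with changes at 40 µM between -0.01 and 0.19.

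The ATP-Mg/phosphate carriers adjust the adenine nucleotide content of the matrix, and several of them respond to calcium. Of the 5, Slc25a24 was the 1 at the mark on all arrays, at 10.27 and 10.23 in the controls, 10.63 and 10.10 at 2.5 µM and 10.19 and 10.67 at 40 µM. Its doses overlapped with control in both directions, and the change at 40 µM was 0.18 ± 0.26 (adjusted p = 0.787). Slc25a25 was above both controls on all 4 dosed arrays, although below the mark, at 7.50 and 7.56 in the controls, 8.11 and 7.79 at 2.5 µM and 8.15 and 7.93 at 40 µM. Its change was 0.51 ± 0.22 at 40 µM (unadjusted p = 0.057, adjusted p = 0.423 in limma) and 0.42 ± 0.22 at 2.5 µM (adjusted p = 0.576), with 0.60 on the replicate 1 and 0.32 on the replicate 2 arrays. Slc25a41 lay lower on all 4 dosed arrays, at 5.12 and 5.26 in the controls, 4.12 and 4.70 at 2.5 µM and 4.13 and 4.76 at 40 µM, with a change of -0.74 ± 0.30 at 40 µM (unadjusted p = 0.0429, adjusted p = 0.408), but its signal was below the negative control median. Slc25a23 read 9.96 and 9.88 in the controls, 10.13 and 10.04 at 2.5 µM and 10.13 and 9.84 at 40 µM, at the mark on both replicate 1 dosed arrays, and Slc25a54 was below the mark with a change of 0.12 at 40 µM.

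Slc25a39 and Slc25a40, the carriers that supply the matrix with glutathione, reached the mark on all arrays. Slc25a39 read 13.26 and 13.32 in the controls, 13.86 and 13.26 at 2.5 µM and 13.76 and 13.65 at 40 µM. Both 40 µM arrays lay above both controls and near each other, with a change of 0.41 ± 0.23 (interval -0.12 to 0.95, adjusted p = 0.481), while at 2.5 µM only replicate 1 was high. Slc25a40 read 11.01 and 11.36 in the controls, 11.02 and 11.13 at 2.5 µM and 11.28 and 10.71 at 40 µM, overlapping control at both doses, with a change at 40 µM of -0.19 ± 0.25 (adjusted p = 0.765). The iron importers of the inner membrane, the mitoferrins Slc25a37 and Slc25a28, were below the mark. Slc25a37 read 7.93 and 7.97 in the controls, 7.84 and 8.09 at 2.5 µM and 8.09 and 7.90 at 40 µM, with little difference among arrays, and Slc25a28 read 9.11 and 9.21 in the controls, 9.06 and 8.85 at 2.5 µM and 9.07 and 9.04 at 40 µM, with all dosed arrays below both controls by a small margin and a change at 40 µM of -0.11 ± 0.20.

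The 3 carriers that resemble uncoupling proteins, Slc25a14, Slc25a27 and Slc25a30, were below the mark, and Slc25a27 had a change of -0.17 at 40 µM. Slc25a30 was lower on all 4 dosed arrays, at 7.64 and 7.57 in the controls, 7.28 and 7.30 at 2.5 µM and 7.50 and 7.31 at 40 µM, with a change at 40 µM of -0.20 ± 0.21 (adjusted p = 0.697). Slc25a14 showed the widest gap between the 40 µM arrays among members below the mark, 6.22 against 4.78. Slc25a46, a family member of the outer membrane that acts in mitochondrial shape rather than in known transport, varied least over the 6 arrays among the 13 carriers at the mark on all of them. It read 13.60 and 13.61 in the controls, 13.60 and 13.70 at 2.5 µM and 13.93 and 13.71 at 40 µM, and its change at 40 µM was 0.21 ± 0.17 (adjusted p = 0.609). Slc25a43 and Slc25a53, whose substrates were not assigned, were below the mark, with changes at 40 µM of -0.17 and -0.03.

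**Figure D2:**
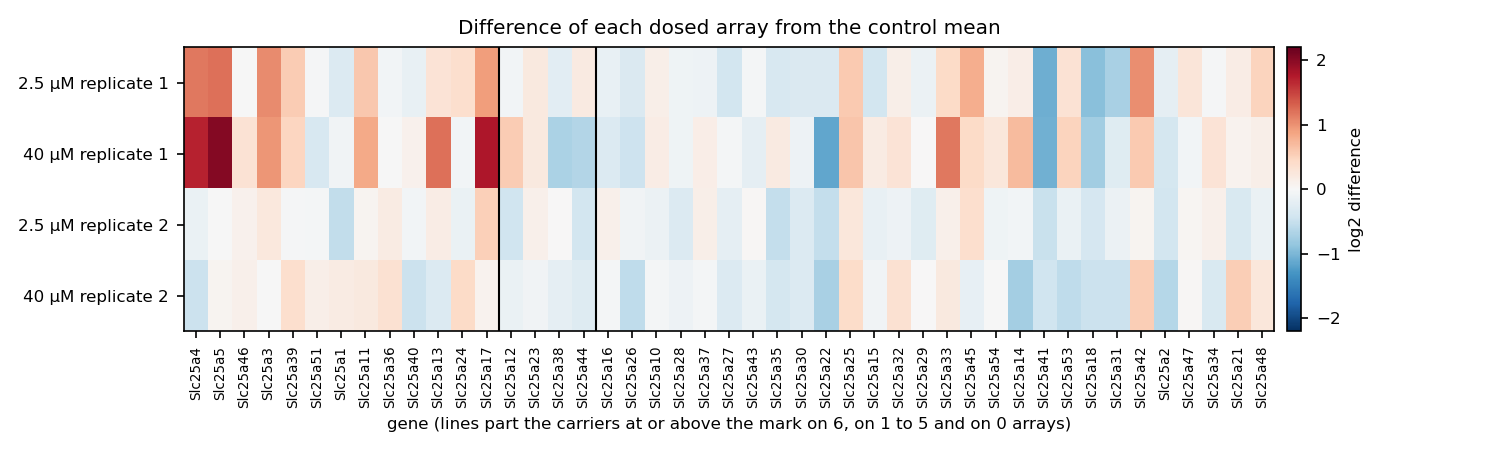
Log2 difference of each of the 45 carriers (columns) from its control mean on each of the 4 dosed arrays (rows), as a colour scale; black lines part the 13 carriers at or above the background mark on 6 arrays, the 4 on some and the 28 on none. The replicate 1 rows of both doses hold the strongest positive differences, up to 2.02 in Slc25a5, while Slc25a22 is negative in all 4 rows.

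Over the whole family, no member passed the adjusted threshold of 0.05 in limma in any of the 3 comparisons, and 0 of 19505 genes (0%) did. Among members, the smallest adjusted p was 0.349 for 40 µM against control, 0.506 for 2.5 µM against control and 0.854 for 40 µM against 2.5 µM. At an unadjusted p under 0.05, 0 members were higher at 40 µM, where 5.18% of all genes were, and 5 were lower (11.1%), where 6.86% of all genes were. The 5 were Slc25a2, Slc25a18, Slc25a22, Slc25a26 and Slc25a41, and none of them reached the background mark on any array. At 2.5 µM, 0 members were higher (background 4.24%) and 2, Slc25a18 and Slc25a41, were lower (4.44%, background 5.38%). Between the doses 0 members passed in either direction, where 2.34% of all genes were higher and 3.28% lower at 40 µM. These counts rested on single arrays. Without 40 µM replicate 2, 2235 genes passed the adjusted threshold for 40 µM against control and 15 members (33.3%) had an unadjusted p under 0.05, as did 30.7% of all genes. Without control replicate 1 or control replicate 2 the members numbered 0 and 1, where 3.21% and 3.4% of all genes passed. At 2.5 µM the members numbered 0 without either control or without 2.5 µM replicate 1, 5 without 2.5 µM replicate 2 (11.1%, against 8.66% of all genes) and 7 without either 40 µM array (15.6%, against 18.7% of all genes). Between the doses they numbered 5 without 40 µM replicate 1 (11.1%, against 13.6% of all genes) and 10 without 40 µM replicate 2 (22.2%, against 20.9%). Leaving out both replicate 1 dosed arrays leaves 1 array per dose, with the error from the controls alone. The members then numbered 19 at 40 µM (42.2%, against 34.6% of all genes), 9 at 2.5 µM (20%, against 35.8%) and 14 between the doses (31.1%, against 32.3%).

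Counts of members whose 2 dosed arrays both lay beyond both controls were set beside those of genes in general. At 40 µM, 10 members (22.2%) lay above and 11 (24.4%) below, against 22.2% and 26.3% of all genes. At 2.5 µM, 7 members (15.6%) lay above and 13 (28.9%) below, against 27.1% and 25.9% of all genes. For 40 µM against 2.5 µM, 6 members (13.3%) lay above and 4 (8.89%) below, against 12.4% and 16.3%. All 4 dosed arrays were above both controls for Slc25a17, Slc25a25 and Slc25a33 (6.67% of members, 13.0% of all genes), and below both for Slc25a2, Slc25a18, Slc25a22, Slc25a26, Slc25a28, Slc25a30 and Slc25a41 (15.6% of members, 14.8% of all genes). The first 3 include 1 carrier at the background mark on all arrays and the 7 include none. Most of these shares stand near the background, and their differences from it were not tested.

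**Figure D3:**
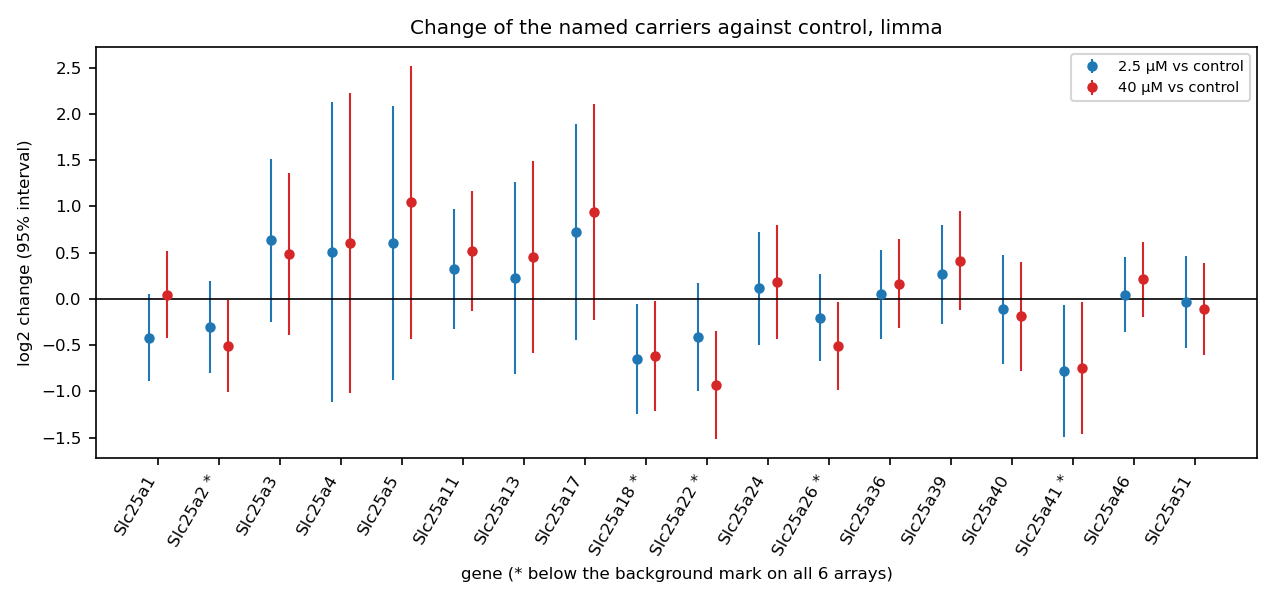
Log2 change against control of the 18 members named by the rule, with the 95% interval from limma, for 2.5 µM (blue) and 40 µM (red); a star marks genes below the background mark on all 6 arrays. All 13 intervals at 40 µM of the unstarred genes cross 0, from Slc25a40 at -0.19 to Slc25a5 at 1.04, and Slc25a22 has the lowest change at -0.93.

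The median change of the 45 members was 0.05 at 40 µM, where that of all genes was -0.01, and 0.01 at 2.5 µM, where that of all genes was 0.01. Members ranged from -0.93 (Slc25a22) to 1.04 (Slc25a5) at 40 µM, and from -0.78 (Slc25a41) to 0.72 (Slc25a17) at 2.5 µM. Of the 45, 15 had a mean over the arrays at or above the mean mark. Their medians on each dosed array, relative to control, were 0.30 and 0.00 at 2.5 µM and 0.47 and 0.08 at 40 µM, replicates 1 and 2 in that order. Of the 15, 9 and 11 lay above their control mean on the replicate 1 arrays and 7 and 9 on the replicate 2 arrays of 2.5 µM and 40 µM. As shares these were 60% and 73.3%, then 46.7% and 60%. Of the 4147 genes with a mean at or above the mark, 58% and 56.2%, then 53.4% and 48.2%, lay above it, so at 2.5 µM replicate 1 the share of members was near that background. Here and in the lists below, the mean behind this choice includes the dosed arrays, so genes high on them pass more easily. Slc25a23, with a control mean of 9.92 against a mean mark of 9.94, was counted among the 15. The medians of the other 30 members were -0.07 and -0.13 at 2.5 µM and 0.04 and -0.16 at 40 µM. For the same 4147 genes the medians were 0.08 and 0.03 at 2.5 µM and 0.08 and -0.01 at 40 µM. By role, the 4 energy carriers had medians of 1.09 and -0.07 at 2.5 µM and 1.33 and -0.24 at 40 µM, while the 12 amino acid carriers had -0.09 and -0.22 at 2.5 µM and -0.03 and -0.19 at 40 µM. The medians of both roles include genes below the mark on all arrays. Among them is the energy carrier Slc25a31, which differed from control by -0.71 and -0.13 at 2.5 µM and by -0.27 and -0.47 at 40 µM.

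The spread between arrays of a group was also wider in dosed cells. The median standard deviation (n = 2) of the 15 members with a mean at or above the mark was 0.0334 in the controls and 0.271 and 0.401 at the lower and higher dose. For all genes with a mean at or above the mark the same values were 0.0513, 0.153 and 0.281. The widest member was Slc25a4 at 40 µM, with a standard deviation of 1.53.

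Because the replicate 1 arrays of both doses stood apart together, the doses were also set side by side within each replicate number. The numbers are not known to pair the samples. Slc25a5 was 0.81 higher at 40 µM than at 2.5 µM among the replicate 1 arrays and 0.07 higher among the replicate 2 arrays. Slc25a11 was higher in both, by 0.25 and 0.15, and Slc25a1 by 0.21 and 0.72. Slc25a22 was lower in both, with differences of -0.84 and -0.19. Slc25a4, Slc25a13 and Slc25a17 were higher among the replicate 1 arrays, by 0.53, 0.91 and 0.87, and not among the replicate 2 arrays, where the differences were -0.33, -0.47 and -0.44. Over the 15 members with a mean at or above the mark the median difference was 0.25 (11 of 15 higher) and 0.07 (9 of 15 higher). With 1 array on each side these differences carry no test.

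Other mitochondrial genes showed the same split by array. Of 73 respiratory chain and ATP synthase subunit genes, the machinery that the ADP/ATP and phosphate carriers serve, 52 had a mean at or above the mark. Their medians relative to control were 0.78 and -0.17 at 2.5 µM and 1.28 and -0.03 at 40 µM, with 49 and 51 of 52 above the control mean on the replicate 1 arrays and 19 and 24 on the replicate 2 arrays. Of 76 mitochondrial ribosomal protein genes, 22 had such a mean, with medians of 0.68 and -0.03 at 2.5 µM and 0.95 and 0.07 at 40 µM. At an unadjusted p under 0.05, 4 of the 73 and 7 of the 76 were higher at 40 µM and none lower, where 5.18% of all genes were higher and 6.86% lower, and 0 passed the adjusted threshold. Without both replicate 1 dosed arrays, 1 array per dose remains, and the medians are those of the replicate 2 arrays. For the 52 respiratory chain and ATP synthase genes these were -0.17 at 2.5 µM and -0.03 at 40 µM. For the 22 ribosomal protein genes they were -0.03 and 0.07.

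**Figure D4:**
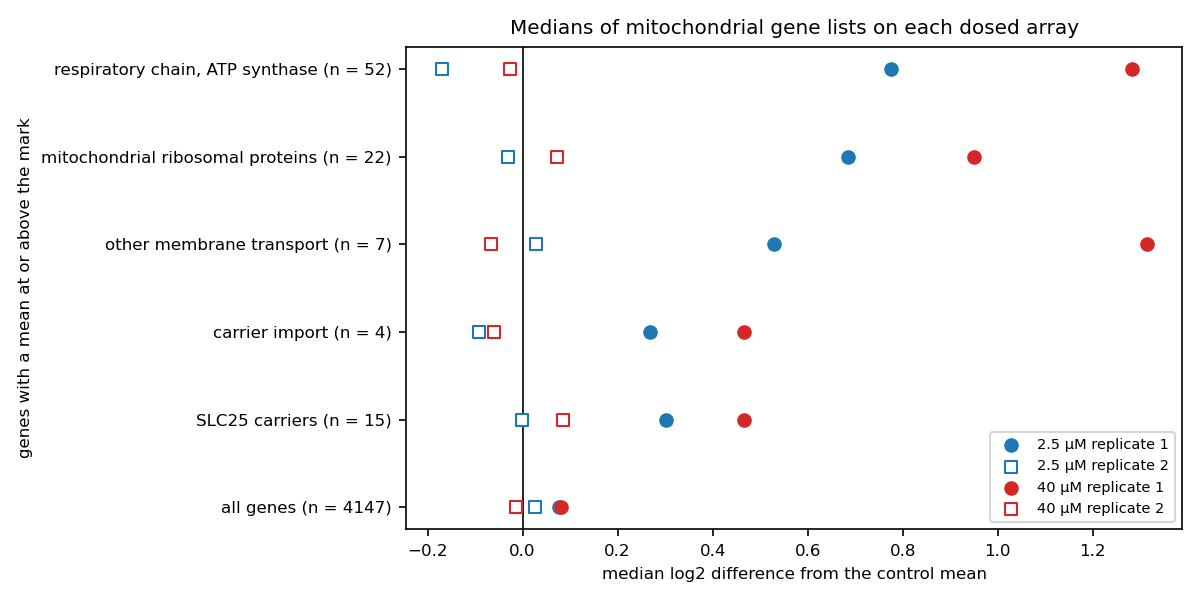
Median log2 difference from the control mean on each dosed array, for the genes of each list with a mean at or above the background mark; filled circles are replicate 1 and open squares replicate 2. The replicate 1 points of the 15 SLC25 carriers lie at 0.30 and 0.47, below those of the respiratory chain at 0.78 and 1.28, and the 2 points of all genes nearly coincide at 0.08.

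The replicate 1 dosed arrays were also high for some carrier relatives with other symbols. Mtch2, an outer membrane relative of the carriers, read 11.30 and 11.40 in the controls, 12.56 and 11.06 at 2.5 µM and 13.66 and 10.91 at 40 µM, with both replicate 1 dosed arrays far above control and both replicate 2 arrays below it. Its change at 40 µM was 0.94 ± 0.85 (adjusted p = 0.65). Ucp1 and Ucp3, uncoupling proteins of brown fat and muscle, were below the negative control median on all arrays, and Ucp3 had a change of -0.50 ± 0.19 at 40 µM (adjusted p = 0.395). The 12 genes of the TIM22 import route had medians of 0.33 and 0.00 at 2.5 µM and 0.83 and -0.05 at 40 µM. Unlike the medians of the lists above, these include genes with a mean below the mark, which most of the 12 were. Of these 12 genes, 2 were higher at 40 µM at an unadjusted p under 0.05 and none lower (5.18% and 6.86% of all genes). The 2 higher genes were Timm29, a subunit of the TIM22 complex, and Timm10, a chaperone of the intermembrane space, both below the mark. Without both replicate 1 dosed arrays, which leaves 1 array per dose, their changes at 40 µM were 0.66 and 0.40. Timm29 read 6.73 and 6.66 in the controls, 6.85 and 7.03 at 2.5 µM and 7.71 and 7.35 at 40 µM, with all 4 dosed arrays above both controls and a change of 0.84 ± 0.23 (unadjusted p = 0.00771, adjusted p = 0.349 in limma). Timm10 read 5.81 and 6.00 in the controls, 6.49 and 6.16 at 2.5 µM and 7.19 and 6.31 at 40 µM, with a change of 0.84 ± 0.33 (adjusted p = 0.394).

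Of 18 other mitochondrial transport genes measured, 2 were higher and 1 lower at 40 µM at an unadjusted p under 0.05, and 1 and 1 at 2.5 µM. The shares of all genes were 5.18% and 6.86% at 40 µM and 4.24% and 5.38% at 2.5 µM, so single genes here are near the background. Without both replicate 1 dosed arrays 1 array per dose remains. The changes at 40 µM of the genes called there, Tspo, Sfxn4 and Sfxn5, were then 0.80, 0.31 and -0.37. Tspo, Vdac3, Micu3, Sfxn1 and Sfxn4 of the 18 lay above both controls on all 4 dosed arrays, where 13.0% of all genes did. Sfxn5 and Abcb8 lay below both controls on all 4, where 14.8% of all genes did, and these shares were not tested. Vdac3 cleared the controls narrowly, with 14.43 on 40 µM replicate 2 against 14.40 on control replicate 1. Tspo, an outer membrane protein that binds cholesterol, read 7.41 and 7.67 in the controls, 8.51 and 8.43 at 2.5 µM and 8.62 and 8.33 at 40 µM, with a change of 0.94 ± 0.22 at 40 µM and 0.93 ± 0.22 at 2.5 µM (adjusted p = 0.334 and 0.479). Its values were below the background mark. Vdac2, a pore of the outer membrane, followed the carriers instead, at 14.38 and 14.32 in the controls, 15.16 and 14.56 at 2.5 µM and 15.99 and 14.19 at 40 µM, with 1.23 on the replicate 1 dosed arrays and 0.03 on the replicate 2 arrays. Sfxn5, a sideroflexin of the inner membrane, was lower on all 4 dosed arrays, at 9.67 and 9.86 in the controls, 8.83 and 9.10 at 2.5 µM and 8.98 and 9.39 at 40 µM, with a change of -0.58 ± 0.23 at 40 µM (adjusted p = 0.407). Sfxn4, the other gene higher at 40 µM, had a change of 0.68 ± 0.29 (adjusted p = 0.414), below the mark.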

How the data were processed

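Total RNA of 6 samples was labelled as biotinylated cRNA for 1-colour Affymetrix arrays, per the labels' protocols. The authors' deposited table holds log2 values made with RMA. That method subtracts background, gives every array the same distribution of probe signals and combines a feature's probes, so a difference in total RNA signal would not show. The submitters' processing notes name RMA, Transcriptome Analysis Console and Affymetrix Expression Console. The sources used here give no settings, build or filters. Between 259 and 269 features per array exceed 16, the limit of a 16-bit log2 scale, for a reason the sources do not give, so folds hold on the deposited scale only. The protocols name 3′ expression arrays, while feature names are those of transcript clusters.

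Samples were grouped by title, source name and treatment field, each giving 2 arrays. Some description fields disagree with these and were not followed. Of 28846 features, 19572 carried 1 gene symbol and gave 19505 genes; a gene with several clusters (55 genes, no member) took the cluster with the highest mean. Comparisons came from 1 fit of all genes over all 6 arrays (limma 3.58.1, R 4.3.3), with group means and a variance prior following the mean level, two-sided, with Benjamini-Hochberg adjustment over 19505 genes. The fit had 3 residual and 4.11 prior degrees of freedom. The script was tested on simulated data. The number of arrays limits the precision.

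Members and lists were chosen with earlier results of these data known. The rule named the members at or above the background mark on all 6 arrays, those past an unadjusted p of 0.05, those that changed by 1 or more on the log2 scale, and those at the mark whose 4 dosed arrays lay on the same side of both controls, 18 in all. The other members are given because every member is accounted for. Alternatives were a level filter, repeated quantile normalization, median centring, a mean over clusters, no trend in the prior, values floored at the mark, the replicate number as a block, and leaving out each array. Across genes, same-numbered deviations from the group means correlated at -0.0045 (control with 2.5 µM), -0.012 (control with 40 µM) and 0.386 (2.5 µM with 40 µM). Lists were described by counts and medians only. Promoter sequences are from RefSeq, GRCm38.p6.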

Additional observations from a re-analysis of the deposited data

How the results depend on the processing

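Of 801 values of named members under the alternatives, 656 were labelled the same and 65 moved by more than the replicate spread. Of the rest, 43 crossed to an unadjusted p below 0.05, 30 lost it and 7 were labelled reversed. The 7 do not hold every change of sign, so directions were less stable than these labels. Over the settings Slc25a51 at 40 µM ranged from -0.36 to 0.13 and Slc25a24 at 2.5 µM from -0.15 to 0.38, both against control. The 2 alternatives added were chosen after seeing the data: a block for the split into replicate 1 dosed arrays and the rest, and leaving out both replicate 1 dosed arrays. The latter leaves 1 array per dose, with the error from the 2 controls alone and the lone sample assumed to vary like them. It gave 3749, 3991 and 2965 genes past the adjusted threshold for 40 µM against control, 2.5 µM against control and 40 µM against 2.5 µM, where the fit on all arrays gave 0. In the same order, members at an unadjusted p under 0.05 numbered 19, 9 and 14 (42.2%, 20% and 31.1%, where 34.6%, 35.8% and 32.3% of all genes passed), against 5, 2 and 0, and the member median was -0.076 and -0.076 for the comparisons with control. Signs turned for several named members, among them Slc25a13 at 40 µM (-0.31 against control, -0.47 against 2.5 µM), Slc25a17 (-0.44 against 2.5 µM) and Slc25a4 (-0.48 and -0.33). Smaller values that turned included Slc25a4 (-0.15) and Slc25a24 (-0.15) at 2.5 µM and Slc25a51 (0.13) at 40 µM, each against control. With the split as a block, 1 gene passed for 40 µM against 2.5 µM, and the member median at 2.5 µM was -0.11. In that fit 3 members at 40 µM (6.67%) and 4 between the doses (8.89%) had an unadjusted p under 0.05, where 14.8% and 13.2% of all genes did.

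Leaving out 1 array at a time gave 0 to 2235 called genes for 40 µM against control, the highest without 40 µM replicate 2. The member median ranged over -0.076 to 0.14 at 40 µM (lowest without 40 µM replicate 1), -0.076 to 0.021 at 2.5 µM (lowest without 2.5 µM replicate 1) and -0.048 to 0.20 between the doses (highest without 40 µM replicate 2). Members at an unadjusted p under 0.05 ranged over 0 to 15, 0 to 7 and 0 to 10. For 40 µM against control there were 0 without control replicate 1, 1 without control replicate 2 and 15 without 40 µM replicate 2, where 3.21%, 3.4% and 30.7% of all genes passed. For 2.5 µM there were 0 without either control or without 2.5 µM replicate 1, 5 without 2.5 µM replicate 2 and 7 without either 40 µM array (8.66% and 18.7% of all genes for the last 2). Between the doses there were 5 without 40 µM replicate 1 and 10 without 40 µM replicate 2 (13.6% and 20.9% of all genes). Between the doses Slc25a13 ranged over -0.54 to 0.98 and Slc25a17 over -0.64 to 1.07. Restricting the fit to genes at or above the median level left 2, 0 and 1 of 33 members at an unadjusted p under 0.05. The shares of all genes at that level were 12%, 7.94% and 5.2%. Quantile normalization repeated on the genes left 3 members at 40 µM (6.67%, against 12.4% of all genes) and moved the member median at 2.5 µM to -0.060. Centring arrays on the median gave 1 member between the doses (2.22%, against 5.57% of all genes). The causes of these shifts were not tested.

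The replicate numbers are not known to pair the samples. Same-numbered deviations correlated at 0.386 between the doses, and at -0.0045 and -0.012 between control and the lower and higher dose. With the number as a block, 7, 3 and 0 members had an unadjusted p under 0.05 (14.8%, 10.7% and 6.22% of all genes), the medians stayed at 0.049, 0.0060 and 0.051, and 0 genes passed the adjusted threshold. Signal over background limits 28 members, whose differences are between values below the mark on all arrays. Setting values below the mark to it gave medians and differences only.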

Other observations

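Regulators of mitochondrial genes were described as a separate group of 9 measured genes, 4 of them with a mean at or above the background mark. Ppargc1a, a coactivator that drives mitochondrial gene programmes and is known to be high in some pigmented melanomas, read 12.69 and 12.54 in the controls, 12.15 and 12.39 at 2.5 µM and 11.56 and 12.01 at 40 µM. Every dosed array lay below both controls, and the change was -0.83 ± 0.22 at 40 µM (unadjusted p = 0.00647, adjusted p = 0.349 in limma) and -0.34 ± 0.22 at 2.5 µM (adjusted p = 0.631). Pprc1, a related coactivator, read 7.01 and 6.58 in the controls, 5.81 and 5.98 at 2.5 µM and 5.78 and 6.17 at 40 µM, below the mark, with all 4 dosed arrays below both controls and changes of -0.82 ± 0.26 and -0.90 ± 0.26 at 40 µM and 2.5 µM (adjusted p = 0.354 and 0.479). Nrf1, a transcription factor of respiratory chain genes, read 12.16 and 12.21 in the controls, 11.97 and 12.09 at 2.5 µM and 11.87 and 12.16 at 40 µM, with little difference among arrays. Tfam, which packages mitochondrial DNA, read 8.32 and 8.35 in the controls, 9.17 and 8.11 at 2.5 µM and 9.13 and 8.02 at 40 µM, below the mark, and was high on both replicate 1 dosed arrays only. Ppargc1a averaged -0.76 relative to control on the replicate 1 dosed arrays and -0.42 on the replicate 2 arrays. The medians of the 4 regulators with a mean at or above the mark were -0.28 and -0.16 at 2.5 µM and -0.13 and -0.10 at 40 µM. What links these values was not tested.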
